A study of Mus musculus with 36 samples.

Results

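The libraries described here came from alveolar macrophages (AΦ) of bone marrow origin and of lung-resident origin in the same kind of chimeric mouse, 32 weeks into an inhalation exposure. Of the 36 libraries in the series, 12 were compared, 6 of BM-AΦ and 6 of TR-AΦ, and of 27562 genes listed, the 12395 whose mean level over these 12 libraries reached 1 FPKM were all tested (FPKM, fragments scaled for transcript length and for the mapped fragments of the library, a level per length). Hosts were young adult male C57BL/6J mice carrying the CD45.2 allele of Ptprc. They received a lethal dose of radiation with the chest behind lead, then busulfan, then marrow of age- and sex-matched B6.SJL-Ptprca Pepcb/BoyJ donors, which carry CD45.1. AΦ were sorted from whole lungs as CD64+ CD11c hi CD11b lo cells and split by CD45 allele, so that BM-AΦ were CD45.1+ and TR-AΦ CD45.2+. Each origin had 3 libraries from mice that breathed filtered air (FA) and 3 from mice that breathed concentrated PM2.5, and replicates were numbered 0, 1 and 2. The labels give C57BL/6 as the strain of every library. They do not say whether BM-AΦ and TR-AΦ of 1 number came from the same mouse, nor whether animals were pooled. The paper states that 3 mice per exposure group and time were picked at random for sequencing. BM-AΦ and TR-AΦ libraries of 1 exposure may therefore come from the same 3 mice, and the main fit did not pair them. Where the libraries did not come from separate animals, the p-values measure only the spread between these libraries. BM-AΦ differed from TR-AΦ in marrow origin, in donor genotype around Ptprc and in not having been present in the lung during conditioning, and these cannot be told apart here.

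AΦ line the airspaces, clear surfactant lipid and take up inhaled particles and microbes. They are seeded before or around birth from fetal precursors and renew locally, and their programme depends on GM-CSF, TGF-β and the nuclear receptor PPARγ. After depletion or injury, circulating monocytes enter the niche and take on much of this programme, so cells of both histories can carry the same surface phenotype.

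Per library, 11469 to 12053 genes reached 1 FPKM, and the 10 highest genes held 30.1% to 33.1% of the sum. The study's methods state a single sequencing depth for the libraries as a whole, and the reads of each library were not in the files used here. In a principal component analysis of the 12 libraries, the first component held 12.6% of the variance and set TR-AΦ replicate 2 of FA (88.4) and of PM2.5 (42.7) apart from the other 10. The second component held 11.4% and separated the origins, with BM-AΦ libraries between 4.99 and 48.6 and TR-AΦ libraries between -45.6 and -10.6. The BM-AΦ FA replicate 1 library, at 4.99, was the BM-AΦ library nearest to TR-AΦ.

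A small group of genes differed between BM-AΦ and TR-AΦ, and most genes did not pass, in the AΦ programme as among all genes tested. A linear model of log2(FPKM + 1) with exposure as covariate (limma, two-sided, Benjamini-Hochberg adjusted p under 0.05 over all genes tested) called 95 genes, 0.766% of those tested. There were 63 genes higher in BM-AΦ (0.508% of those tested; median log2 fold change 1.38) and 32 genes lower (0.258%; median -1.46), while the median over all genes tested was 0.02. The libraries of the origins did not overlap for 49 of the 63 and 28 of the 32 genes, against 167 genes (1.35%) among all tested. All 63 and all 32 had the same sign within FA and within PM2.5. They were called from these same libraries pooled over exposure, so this agreement was largely set by the call. Marco, a scavenger receptor for particles and bacteria, and Apoc1, an apolipoprotein, were the protein-coding genes with the largest log2 differences on the lower side, and Plbd1, a phospholipase B domain protein of myeloid granules, was the largest on the higher side among genes measured in both origins. Leaving out 1 library in turn gave between 34 calls (without BM-AΦ FA replicate 0) and 147 calls (without BM-AΦ FA replicate 1). Leaving out any 1 library moved the count by over 1.5 times, except TR-AΦ FA replicate 2 (85 calls). Without replicate 2 of every group, a setting chosen after seeing the data, 7 genes passed, Marco, Ctse and Rn7s1 among them, and all 95 genes kept their direction. Of the 95 genes, 29 passed in all 12 fits that left out 1 library, and the number of these fits is given with the genes below. In what follows, 3 levels of a gene are its lowest, median and highest library. Values in brackets are the log2 fold change, BM-AΦ minus TR-AΦ, ± SE with the adjusted p of limma (n = 6 and 6). Among the named genes, 15 per direction were picked from called genes without overlap, so their lack of overlap was set by that choice.

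**Figure D1:**
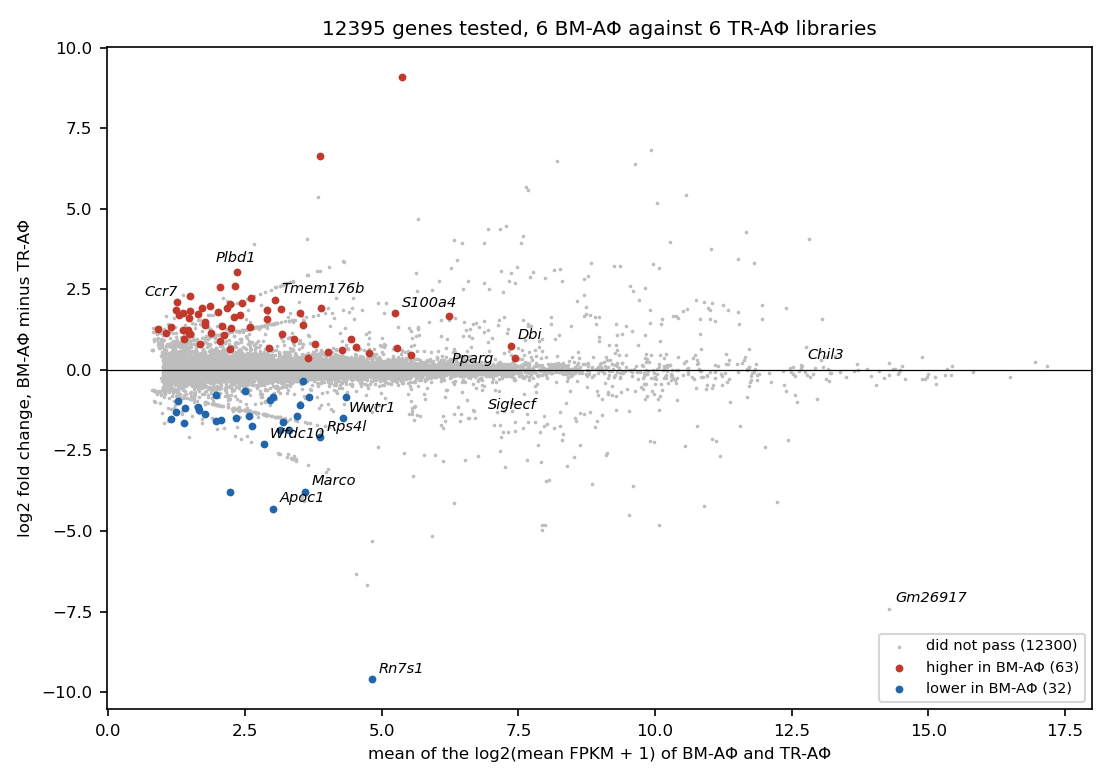
Each point is 1 of the 12395 genes tested, with its mean level in BM-AΦ and TR-AΦ on the x axis (log2 of mean FPKM + 1) and its log2 fold change, BM-AΦ minus TR-AΦ, on the y axis; 63 genes passed higher (red) and 32 lower (blue). Most points lie along 0 and Chil3, Pparg and Siglecf, of the AΦ programme, did not pass, while Marco, Apoc1 and Rps4l lie well below 0 and Plbd1 above it; Rn7s1 and Gm26917 are listed at 0 in whole groups of libraries.

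The genes that define AΦ were present in both origins. Chil3, the secreted chitinase-like protein Ym1, had a median of 6970 FPKM in BM-AΦ and 6180 FPKM in TR-AΦ (log2 fold change 0.14 ± 0.29 SE, adjusted p = 0.94). Pparg, the nuclear receptor of AΦ identity, had medians of 70.5 and 73.9 FPKM (-0.09 ± 0.08, adjusted p = 0.842), and Car4, a carbonic anhydrase, 53.3 and 46.9 FPKM (0.15 ± 0.21, adjusted p = 0.911). Siglecf, the sialic acid receptor used to tell AΦ from other lung macrophages, ranged from 82.3 through a median of 95.4 to 111 FPKM in BM-AΦ and from 115 through 139 to 157 FPKM in TR-AΦ. These ranges did not overlap, and the difference of -0.51 ± 0.10 lay just outside the threshold (adjusted p = 0.0542). Ear1, an eosinophil-associated ribonuclease of AΦ, had medians of 729 and 1050 FPKM (-0.44 ± 0.17, adjusted p = 0.402). Of the 29 tested genes in a list of 30 AΦ identity genes, 1 was lower in BM-AΦ (Marco) and none was higher. Of these 29, 7 had log2 fold changes above 0, and the list's median was -0.07. As 0.766% of all genes tested were called, a list of this size would give few calls in any case.

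None of the genes used in the sort passed. Ptprc itself, read as 1 gene from both alleles, had medians of 137 and 121 FPKM (0.13 ± 0.11, adjusted p = 0.842). Itgax, which encodes CD11c, had medians of 73.1 and 67.4 FPKM (0.11 ± 0.07, adjusted p = 0.733), and Fcgr1, which encodes CD64, 20.4 and 15.6 FPKM (0.33 ± 0.11, adjusted p = 0.302). Itgam, which encodes CD11b, was low in TR-AΦ, with 0.593, 0.639 and 1.56 FPKM as the lowest, median and highest library, and had 1.1, 6.1 and 6.54 FPKM in BM-AΦ. The Itgam difference of 1.56 ± 0.34 did not pass (adjusted p = 0.0735), and the ranges overlapped.

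Marco differed most among the AΦ identity genes. Its BM-AΦ libraries were at 2.08, 1.05 and 0.743 FPKM under FA and at 1.5, 2.07 and 6.85 FPKM under PM2.5. Its TR-AΦ libraries were at 46.1, 23.8 and 33.7 FPKM under FA and at 27.9, 47.3 and 77.8 FPKM under PM2.5. The highest BM-AΦ library was thus below the lowest TR-AΦ library, and the mean was 17.9 times higher in TR-AΦ (-3.78 ± 0.33, adjusted p = 0.00071). Marco passed in all 12 fits that left out 1 library. Colec12, a collectin of the scavenger receptor family, ranged from 2.69 through 5.56 to 11.9 FPKM in BM-AΦ and from 14.3 through 15.6 to 20.8 FPKM in TR-AΦ (-1.43 ± 0.28, adjusted p = 0.0422), but passed in 1 of the 12 fits. Of 12 tested scavenger receptor genes, these 2 were lower and Cxcl16, a membrane chemokine that also binds oxidised lipoprotein, was higher. The list's median was -0.09.

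Of 28 genes for lipid handling, Apoc1 alone passed (median of the list -0.08). Apoc1 was listed at 0 in 4 of 6 BM-AΦ libraries, all 3 of FA and PM2.5 replicate 0, and had 4.29 and 1.27 FPKM in PM2.5 replicates 1 and 2. In TR-AΦ it had 13.4 FPKM in the lowest library, a median of 35.4 and 56.3 in the highest (-4.31 ± 0.48, adjusted p = 0.00259). An exact 0 in estimates of this kind can be a failed estimate, which was not tested for Apoc1, and the size of its log2 difference depends on the pseudocount. Its neighbour Apoe, the main lipid carrier of macrophages, had the higher median in BM-AΦ, 194 FPKM against 70.7 FPKM in TR-AΦ, and did not pass (1.18 ± 0.46, adjusted p = 0.451). In the cholesterol synthesis list, 18 of 19 tested genes had log2 fold changes above 0, and their median was 0.35.

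Wwtr1, Meis1 and Esrrg, which act in transcription, were lower in BM-AΦ. They belong to no list used here, and Meis1 was chosen after its values were seen. Wwtr1, which encodes the Hippo pathway coactivator TAZ, ranged from 6.57 through 11.1 to 13.2 FPKM in BM-AΦ and from 26.3 through 31.1 to 37.5 FPKM in TR-AΦ (-1.49 ± 0.15, adjusted p = 0.00176). Meis1, a homeodomain factor, had medians of 0.426 FPKM in BM-AΦ and 2.64 FPKM in TR-AΦ (-1.29 ± 0.21, adjusted p = 0.0232). Esrrg, an orphan nuclear receptor of oxidative metabolism, had 0.716, 1.26 and 2.85 FPKM in BM-AΦ and 3.7, 5.49 and 8.84 FPKM in TR-AΦ (-1.54 ± 0.24, adjusted p = 0.0181). None of these 3 genes had overlapping origins. Wwtr1 passed in all 12 fits without 1 library, Esrrg in 9 and Meis1 in 3.

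Bmpr1a, a type I receptor for bone morphogenetic proteins, ranged from 0.207 through 0.385 to 0.701 FPKM in BM-AΦ and from 1.65 through 4.07 to 5.54 FPKM in TR-AΦ (-1.64 ± 0.23, adjusted p = 0.0101). Prickle2, a planar cell polarity protein, had 2.29, 4.26 and 6.46 FPKM against 13.8, 17.8 and 20.2 FPKM (-1.85 ± 0.22, adjusted p = 0.00362). Both passed in all 12 fits, as did Adgrl3, an adhesion receptor of the latrophilin family (-1.59 ± 0.16, adjusted p = 0.00159), Tcaf1, which binds the channel TRPM8 (-1.61 ± 0.20, adjusted p = 0.00492), and Best1, an anion channel (-0.93 ± 0.13, adjusted p = 0.0103). Their libraries did not overlap between origins either. Sema3e, a secreted semaphorin, had medians of 2.26 FPKM in BM-AΦ and 10.5 FPKM in TR-AΦ (-1.73 ± 0.29, adjusted p = 0.0232). Plxnd1, its plexin receptor, was higher in BM-AΦ, with medians of 24.2 and 14.3 FPKM (0.63 ± 0.11, adjusted p = 0.0243). Sema3e passed in 5 and Plxnd1 in 2 of the 12 fits.

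Slc1a3, a glutamate and aspartate transporter, ranged from 0.904 through 3.87 to 5.92 FPKM in BM-AΦ and from 9.17 through 15.8 to 19.5 FPKM in TR-AΦ (-1.85 ± 0.34, adjusted p = 0.0321, 3 of the 12 fits). Wfdc10, a whey acidic protein domain gene, was listed at 0 in 1 BM-AΦ library, where its median was 2.92 and its highest level 4.16 FPKM, and had 6.72, 15 and 19.5 FPKM in TR-AΦ (-2.30 ± 0.38, adjusted p = 0.0232, 5 of the 12 fits). Rps4l, a gene resembling the small ribosomal subunit protein gene Rps4x, had 3.3, 6.21 and 9.72 FPKM in BM-AΦ and 23.2, 28.1 and 38.1 FPKM in TR-AΦ (-2.08 ± 0.21, adjusted p = 0.00159, all 12 fits). Rps4x lay between 159 and 187 FPKM in all 12 libraries. Reads shared with such a copy make the Rps4l level uncertain. None of the 3 lower genes overlapped between origins.

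**Figure D2:**
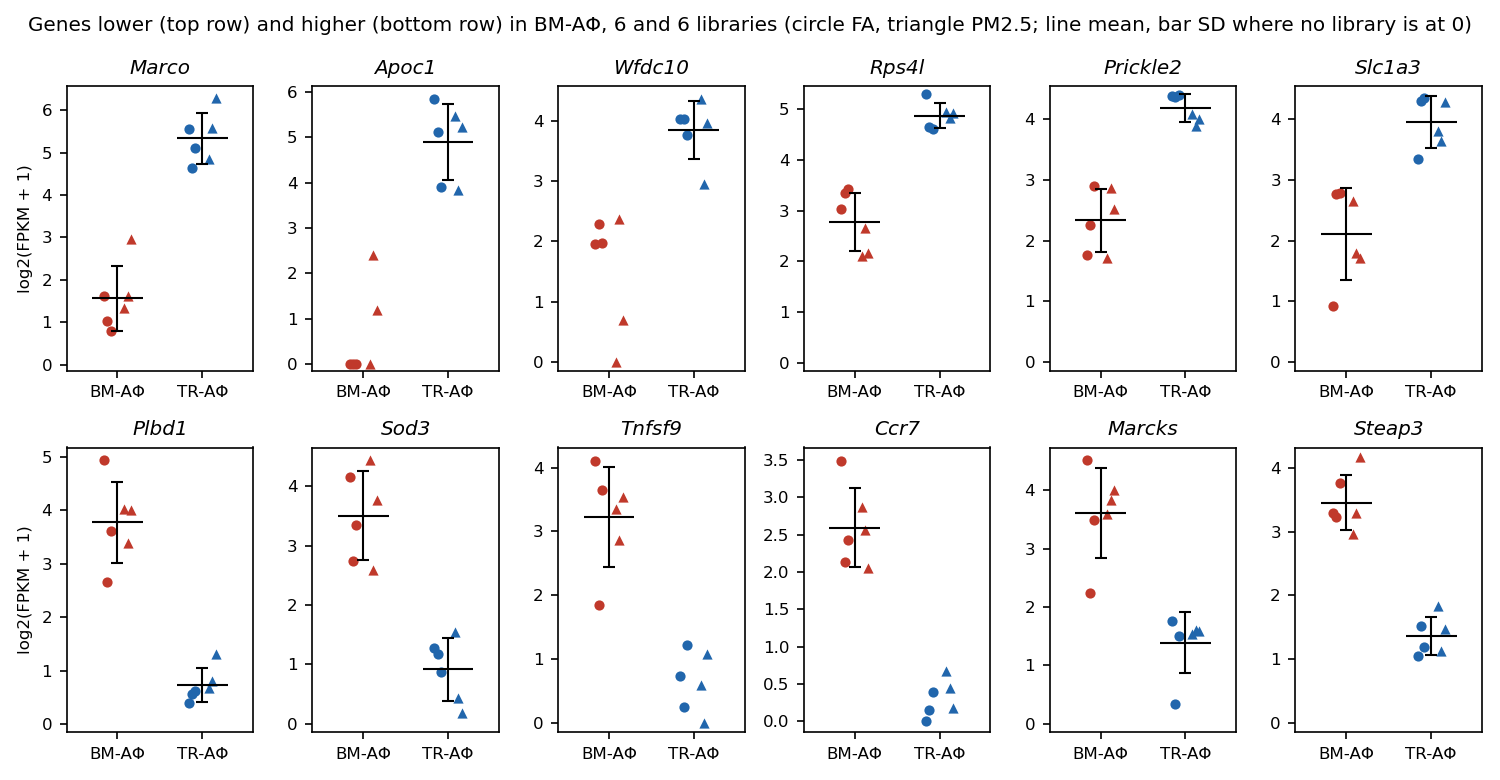
FPKM on a log2(FPKM + 1) scale of 6 genes lower (top) and 6 genes higher (bottom) in BM-AΦ, 1 point per library (circles FA, triangles PM2.5), with the line at the mean and the bar at 1 SD of the 6 libraries, drawn only where no library is listed at 0. The genes were picked among called genes without overlap, so in every panel all 6 BM-AΦ points lie on 1 side of all 6 TR-AΦ points. For Marco the BM-AΦ library nearest to TR-AΦ is PM2.5 replicate 2 (6.85 FPKM).

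On the higher side, Plbd1, Sod3 and Steap3 were among the genes with the largest log2 differences. Plbd1 was at 29.7, 5.27 and 11.3 FPKM under FA and at 15.1, 9.52 and 15 FPKM under PM2.5 in BM-AΦ, against 0.321 to 1.49 FPKM in TR-AΦ, a 20.5 times higher mean (3.04 ± 0.32, adjusted p = 0.00186). Sod3, the secreted superoxide dismutase, ranged from 4.98 through 10.9 to 20.7 FPKM in BM-AΦ and from 0.125 through 1.04 to 1.91 FPKM in TR-AΦ (2.59 ± 0.36, adjusted p = 0.00974). It was the only one of 33 tested antioxidant and NRF2 target genes to pass, and the median of that list was 0.00. Steap3, an endosomal ferrireductase that prepares iron for export from the endosome, had 6.85, 8.81 and 17 FPKM against 1.07, 1.53 and 2.57 FPKM (2.09 ± 0.21, adjusted p = 0.00159). These genes passed in all 12 fits that left out 1 library, and their ranges did not overlap.

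Tnfsf9, the 4-1BB ligand that costimulates T cells, ranged from 2.61 through 9.87 to 16.3 FPKM in BM-AΦ, and in TR-AΦ from a library listed at 0 through 0.589 to 1.33 FPKM (2.58 ± 0.36, adjusted p = 0.0101). Ccr7, the chemokine receptor that guides cells to lymph nodes, had 3.16, 4.65 and 10.2 FPKM in BM-AΦ and 0.601 FPKM at most in TR-AΦ, with 1 library at 0 (2.29 ± 0.25, adjusted p = 0.0021). Both passed in all 12 fits without 1 library. Fgl2, a membrane prothrombinase and secreted immune regulator, had medians of 8.58 and 1.11 FPKM (2.04 ± 0.35, adjusted p = 0.0263, 2 of the 12 fits). Marcks, an actin-binding substrate of protein kinase C, had medians of 12.2 and 1.95 FPKM (2.23 ± 0.35, adjusted p = 0.0181, 10 of the 12 fits). Gpr132, a receptor for lactate and oxidised lipids, had medians of 5.91 and 0.615 FPKM (1.99 ± 0.24, adjusted p = 0.00384) and P2ry10, a receptor for lysophosphatidylserine, 11.2 and 2.06 FPKM (1.86 ± 0.32, adjusted p = 0.0263). Gpr132 passed in all 12 fits and P2ry10 in 4. None of these 6 genes overlapped between origins.

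A few monocyte genes were higher in BM-AΦ. Of 22 monocyte markers, 16 were tested, 3 passed higher and none lower (median 0.58). Ccr2, the receptor for the chemokine that draws monocytes from blood, ranged from 6.2 through 13 to 36.8 FPKM in BM-AΦ and from 2.09 through 3.11 to 6.01 FPKM in TR-AΦ (1.89 ± 0.35, adjusted p = 0.0361, 1 of the 12 fits). S100a4, a calcium-binding protein of migrating cells, had 46.5, 60.3 and 98.7 FPKM against 12.4, 19.1 and 29.2 FPKM (1.76 ± 0.25, adjusted p = 0.0101). Its chromosome 3 neighbour S100a6 had 103, 124 and 161 FPKM against 21.8, 43.7 and 56.6 FPKM (1.68 ± 0.23, adjusted p = 0.00974). S100a4 and S100a6 passed in all 12 fits. Ifitm3, an antiviral membrane protein very high in monocytes, had 4.01, 5.91 and 9.43 FPKM in BM-AΦ and a median of 1.15 FPKM in TR-AΦ, where 1 library was at 0 (1.79 ± 0.30, adjusted p = 0.0247, 5 of the 12 fits). These 4 genes did not overlap between origins. Cx3cr1, the fractalkine receptor, had medians of 3.59 and 0.53 FPKM and did not pass (1.55 ± 0.40, adjusted p = 0.155). Ly6c2, the defining gene of classical monocytes, was under the level tested. It had 0.234, 1.18 and 2.14 FPKM in BM-AΦ. In TR-AΦ 1 library had 1.82 FPKM and the other 5 were listed at 0.

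Markers of interstitial macrophages and dendritic cells gave 3 calls, all higher in BM-AΦ. All 12 tested interstitial macrophage genes had log2 fold changes above 0 (median 1.3), but 1 passed. That gene was Tmem176b, a cation channel of antigen-presenting cells, with 6.08, 15 and 37.8 FPKM against 1.56, 2.32 and 4.4 FPKM (2.19 ± 0.39, adjusted p = 0.0299, 3 of the 12 fits). The complement genes C1qa, C1qb and C1qc had medians of 66.8, 46 and 39.1 FPKM in BM-AΦ and 11.7, 7.73 and 8.26 FPKM in TR-AΦ. They missed the threshold at log2 differences of 2.07 ± 0.44, 2.24 ± 0.51 and 1.93 ± 0.44 (adjusted p = 0.0671, 0.0934 and 0.0934). Of 7 tested dendritic cell genes, Ccr7 and Mgl2, a galactose-binding lectin, passed higher (median of the list 0.83). Mgl2 had 1.58, 4 and 10.8 FPKM in BM-AΦ and 0.356, 0.629 and 0.986 FPKM in TR-AΦ (1.74 ± 0.31, adjusted p = 0.0274, 3 of the 12 fits).

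These marker levels were also summed per library. The summed dendritic cell markers were 19.6, 30.9 and 59.3 FPKM (lowest, median, highest) in BM-AΦ and 10.5, 13.2 and 16.5 FPKM in TR-AΦ, without overlap. The interstitial macrophage sum was 379, 670 and 1027 FPKM in BM-AΦ and 338, 350 and 511 FPKM in TR-AΦ, and the monocyte sum was 932, 1197 and 1387 FPKM against 790, 845 and 1047 FPKM. Both of these overlapped, although each of the 3 sums was higher in BM-AΦ than in the TR-AΦ library of the same exposure and number in 6 of 6 cases. BM-AΦ FA replicate 1 had the lowest of all 3 sums among BM-AΦ libraries. No marker of these 3 lists was under 1 FPKM in all 12 libraries, and a lower number of cells of such a type and less RNA per cell cannot be told apart in bulk libraries. Their part in the differences was not tested. Markers of other cell types were also summed. The B cell sum was 0.72, 18 and 84 FPKM in BM-AΦ and 4.37, 15.9 and 21.9 FPKM in TR-AΦ, highest in BM-AΦ PM2.5 replicates 0 (84 FPKM) and 2 (83.1 FPKM), and lay mostly in the immunoglobulin genes Igkc (76.7 FPKM at most) and Ighm (15 FPKM at most). The T and NK cell sum of 181 to 236 FPKM lay almost wholly in Cd2 (180 to 232 FPKM), and the epithelial sum (medians 83.3 FPKM in BM-AΦ and 85.9 FPKM in TR-AΦ, highest 185 FPKM) lay mostly in Epcam (36.7 to 79 FPKM) and the club cell gene Scgb1a1 (0 to 112 FPKM). Red cell markers summed to 39.4 to 57.3 FPKM in replicate 2 of every group and to 2.38 FPKM at most in the other 8 libraries. The neutrophil genes Retnlg, Ly6g, Camp, Ltf and Ngp, the B cell genes Cd79a, Cd79b and Ms4a1 and the eosinophil genes Epx, Ccr3 and Il5ra were under 1 FPKM in all 12 libraries. None of the tested genes of the neutrophil, B cell, T and NK cell, red cell, epithelial and stromal lists passed.

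The chemokine and chemokine receptor genes that passed were all higher in BM-AΦ. Among 18 tested chemokines, with a median of 0.63, Cxcl16 and Ccl5 passed. Cxcl16 ranged from 11.1 through 28 to 42.9 FPKM in BM-AΦ and from 3.59 through 6.04 to 11.2 FPKM in TR-AΦ (1.93 ± 0.31, adjusted p = 0.0221). Ccl5, a T cell and monocyte attractant, had 2.1, 5.38 and 7.51 FPKM in BM-AΦ and a median of 0.351 FPKM in TR-AΦ (1.91 ± 0.36, adjusted p = 0.0343). Both overlapped between origins, and Cxcl16 passed in 3 and Ccl5 in 2 of the 12 fits. The receptors Ccr7 and Ccr2, with values above, were among those that passed of 30 tested chemokine and growth factor receptors (median 0.10).

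Genes of antigen presentation lay a little above 0 in BM-AΦ, and 2 passed. Of 29 tested, 27 had log2 fold changes above 0, with a median of 0.25. Cd86, a costimulatory ligand for CD28, had 8.64, 12.4 and 16.8 FPKM in BM-AΦ and 2.95, 4.86 and 7.19 FPKM in TR-AΦ (1.11 ± 0.19, adjusted p = 0.0243, 4 of the 12 fits). H2-Ob, a chain of the molecule that restrains peptide loading on MHC class II, had 1.92, 3.46 and 3.7 FPKM against 0.243, 0.91 and 1.64 FPKM (1.14 ± 0.21, adjusted p = 0.0336, 3 of the 12 fits). Neither overlapped between origins.

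Regulators higher in BM-AΦ came from several lists. Runx3, a Runt family factor, ranged from 1.37 through 3.36 to 5.46 FPKM in BM-AΦ and from 0.101 through 0.183 to 1.01 FPKM in TR-AΦ (1.72 ± 0.26, adjusted p = 0.0168, 11 of the 12 fits). It was the single call among 26 macrophage transcription factors (median 0.01). Mef2c, a MADS box factor, had 6.26, 8.65 and 11 FPKM against 0.895, 1.97 and 3.14 FPKM (1.71 ± 0.21, adjusted p = 0.00379, all 12 fits). Ahr, the receptor for dioxin and for polycyclic hydrocarbons of combustion, had 1.42, 3.08 and 5.07 FPKM against 0.464, 0.631 and 0.922 FPKM (1.25 ± 0.21, adjusted p = 0.0257, 3 of the 12 fits). The Ahr difference was 1.25 within FA and 1.26 within PM2.5. Itgb7, an integrin chain of gut-homing and mucosal leukocytes, had 2.06, 3.99 and 8.6 FPKM against 0.109, 0.427 and 0.898 FPKM (1.84 ± 0.26, adjusted p = 0.0103, all 12 fits), 1 call among 20 tested integrin and adhesion genes. None of these 4 genes overlapped between origins. In the repair and fibrosis list, Timp2, an inhibitor of matrix metalloproteinases, was the 1 call among 28 tested genes (0.67 ± 0.13, adjusted p = 0.0386, 2 of the 12 fits). Among further lists with 1 higher gene, 31 lysosome genes were tested (Ctse, median -0.01), 23 cytokines (Tnfsf9, median 0.20), 3 genes of the aryl hydrocarbon response (Ahr) and 3 of the Ifitm family (Ifitm3). Of 32 tested Toll-like and C-type lectin receptors, Mgl2 was higher and Colec12 lower, with a median of 0.09.

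Some lists gave no call. Only 0.766% of all genes tested were called, so a list of this size would often give none. The absence of calls is therefore no result about these programmes. No gene passed among 35 tested for proliferation (median 0.17), 28 CDK inhibitors and p53 targets (median 0.04), 28 apoptosis regulators (0.06), 22 interferon-induced genes (0.20), 16 NF-kappa B genes (0.17), 22 immediate early genes (0.03), 15 complement genes (0.30) and 33 genes of the Siglec, SIRP and CD200 receptor families. Heat shock chaperones (18 tested), Fc receptors (8) and genes of glycolysis and hypoxia (22) gave none either. Log2 fold changes were above 0 for 27 of 35 proliferation genes and 16 of 18 heat shock chaperones. They were above 0 for 17 of 28 CDK inhibitors and p53 targets and 16 of 33 Siglec, SIRP and CD200 receptor genes. The study's other genes of interest at 32 weeks did not pass between origins. The paper names them for PM2.5 exposure, which is another comparison, so these values do not bear on its statements. Cxcr1 had medians of 21.8 and 18.2 FPKM (0.06 ± 0.49, adjusted p = 0.993), Tgfb1 159 and 174 FPKM (-0.05 ± 0.12, adjusted p = 0.953) and Cd200 6.49 and 6.16 FPKM (0.29 ± 0.38, adjusted p = 0.905). Fstl1 (0.64 ± 0.62, adjusted p = 0.848) and Cxcl13 (0.66 ± 0.42, adjusted p = 0.764) spread widely, each with at least 1 library listed at 0 in both origins. Cd163 was under the level tested, with medians of 0.315 and 0.947 FPKM.

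**Figure D3:**
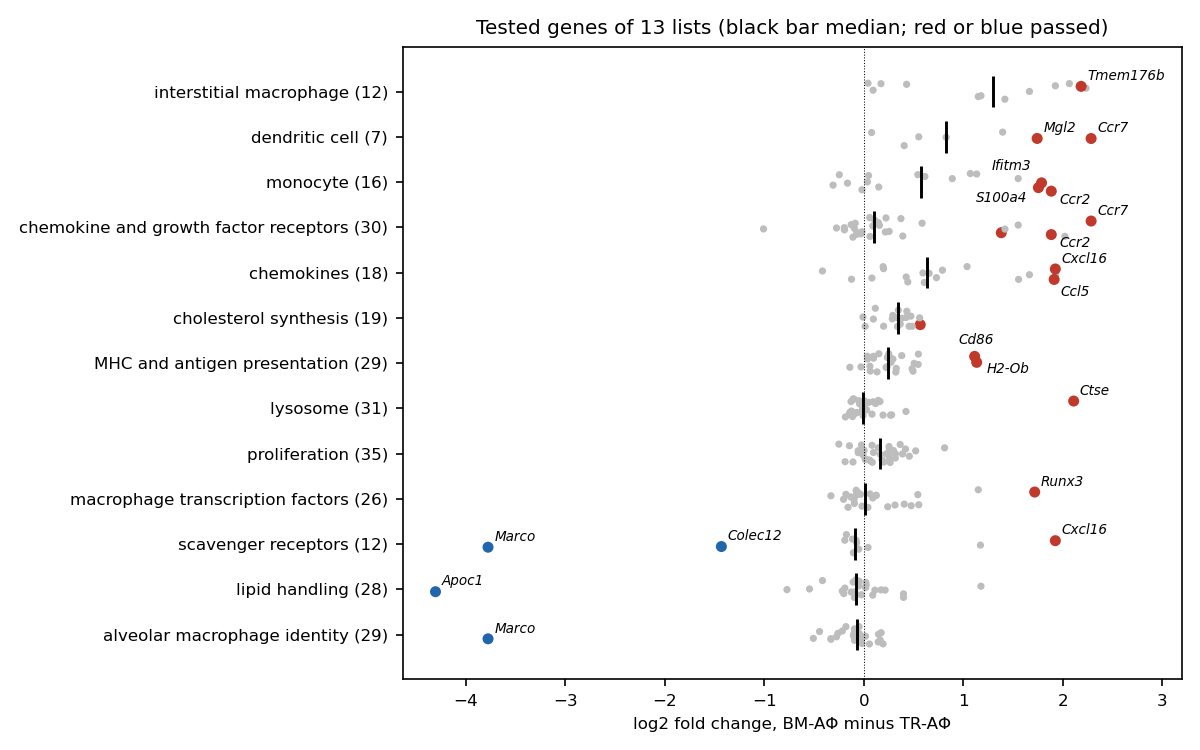
Log2 fold changes, BM-AΦ minus TR-AΦ, of the tested genes of 13 lists (number tested in brackets); each dot is a gene, red passed higher, blue passed lower, and the black bar is the list's median. The interstitial macrophage (1.3), dendritic cell (0.83), chemokine (0.63) and monocyte (0.58) medians stand furthest above 0 with 1 to 3 calls each, and the alveolar macrophage identity list sits at -0.07 with Marco as its 1 call.

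Donor and host differed in genotype at Ptprc on chromosome 1, and the donor strain carries SJL sequence around it, of a length not given in the sources used here. Within 25 Mb of the middle of Ptprc, 9 of 202 tested genes passed (4.46%, against 0.766% of all tested), 6 higher and 3 lower. Within 10 Mb there were 4 of 88 (4.55%), and within 50 Mb 12 of 435 (2.76%). Ctse, which encodes the aspartic protease cathepsin E, lay 6.46 Mb from Ptprc and had 2.91, 3.94 and 5 FPKM in BM-AΦ and 0.545 FPKM at most in TR-AΦ, where 3 libraries were listed at 0 (2.11 ± 0.17, adjusted p = 0.00052). Closer still were Csrp1, a LIM domain protein (0.51 ± 0.09, adjusted p = 0.0321), the predicted gene Gm38399 (1.59 ± 0.27, adjusted p = 0.0232) and Ppp1r12b, a regulatory subunit of myosin phosphatase (-0.83 ± 0.16, adjusted p = 0.0459). On the other side, Hmcn1, an extracellular matrix protein, lay 12.7 Mb away (-0.97 ± 0.16, adjusted p = 0.0232).

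The other 4 of the 9 genes were neighbours, with no other tested gene between them. In GRCm38 coordinates they ran, all on the minus strand, from Tmem37 (chr1:120067377-120074074) through Dbi (chr1:120113280-120121078) and Steap3 (chr1:120190757-120272705) to Marco (chr1:120474538-120505024). The first 3 were higher in BM-AΦ and Marco was lower. Dbi, which encodes the acyl-CoA-binding protein, had 194, 213 and 234 FPKM in BM-AΦ and 110, 122 and 150 FPKM in TR-AΦ (0.75 ± 0.09, adjusted p = 0.00307, all 12 fits). Its mean was 1.69 times higher in BM-AΦ. Tmem37, a protein related to calcium channel gamma subunits, had 0.652, 3.94 and 5.96 FPKM in BM-AΦ and 0.349 FPKM at most in TR-AΦ (1.85 ± 0.31, adjusted p = 0.0232, 2 of the 12 fits). The next tested genes outward, Ptpn4 and Insig2, did not pass (0.37 ± 0.21, adjusted p = 0.685, and -0.05 ± 0.17, adjusted p = 0.963). In the monocytes of 32 weeks, 193 of the genes within 25 Mb were tested between CD45.1 and CD45.2 cells. Of these, 4 passed, Ctse and Gm38399 among them. Of the neighbours, Tmem37 (-1.93 ± 0.44, adjusted p = 0.102) and Dbi (-0.40 ± 0.19, adjusted p = 0.529) were lower in CD45.1 monocytes, opposite to AΦ. Steap3 was higher (0.63 ± 0.18, adjusted p = 0.21), and none of these passed. Marco was not tested there and had medians of 0 FPKM in CD45.1 and 0.921 FPKM in CD45.2 monocytes. Genotype, origin and history cannot be told apart for these genes in AΦ.

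**Figure D4:**
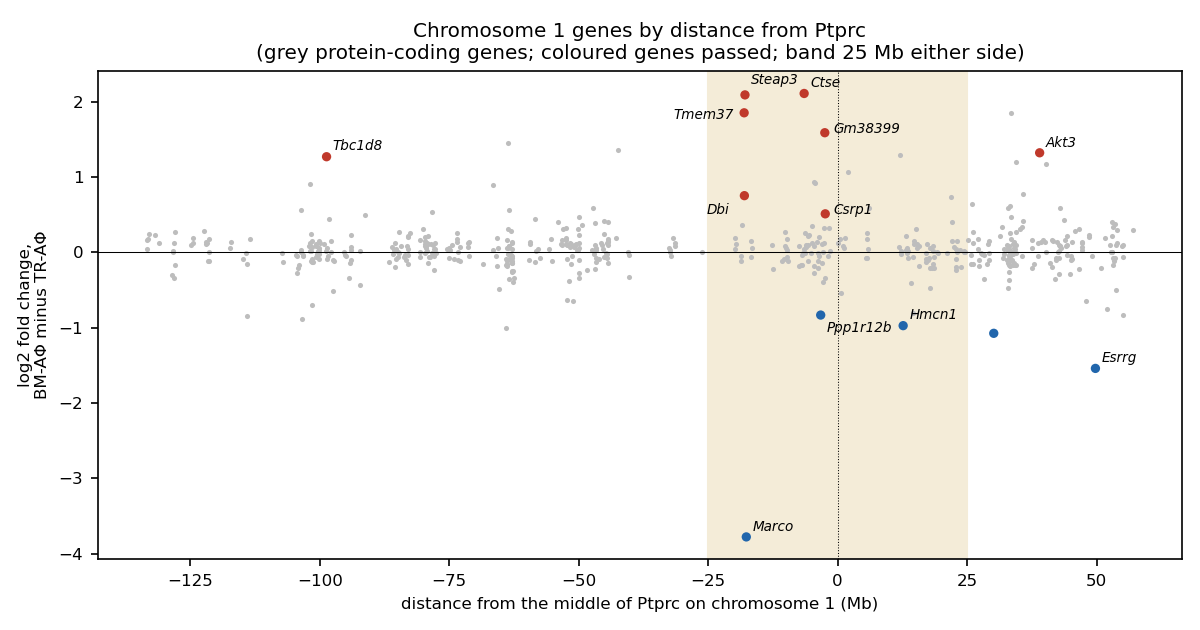
Chromosome 1 genes by their distance in Mb from the middle of Ptprc (x axis) and their log2 fold change, BM-AΦ minus TR-AΦ (y axis); grey dots are protein-coding genes that did not pass, coloured dots the 13 genes of the chromosome that did. The shaded band of 25 Mb to either side holds 9 of them, with Tmem37, Dbi, Steap3 and Marco stacked near -18 Mb.

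The 250 bases before the RefSeq start of Marco and Tmem37 are printed because these nearby genes differed in opposite directions; they are RefSeq sequence of GRCm38.p6, both of the minus strand, at chr1:120505025-120505274 and chr1:120073781-120074030. The RefSeq start of Tmem37 lies inside the gene as GENCODE places it above, and so does its window. Steap3 has several listed starts and is not shown. The reference is C57BL/6J and so the host's sequence; the donor's was not examined. Capitals mark letters matching the core of the PU.1 motif (GAGGAA) or the AP-1 motif (TGANTCA), searched on both strands together with the E-box CACGTG, and no matches overlapped.
Marco: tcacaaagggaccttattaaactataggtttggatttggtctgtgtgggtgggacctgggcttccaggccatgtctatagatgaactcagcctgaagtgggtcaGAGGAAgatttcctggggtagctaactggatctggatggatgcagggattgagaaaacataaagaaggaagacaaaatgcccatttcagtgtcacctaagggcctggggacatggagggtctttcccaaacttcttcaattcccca
Tmem37: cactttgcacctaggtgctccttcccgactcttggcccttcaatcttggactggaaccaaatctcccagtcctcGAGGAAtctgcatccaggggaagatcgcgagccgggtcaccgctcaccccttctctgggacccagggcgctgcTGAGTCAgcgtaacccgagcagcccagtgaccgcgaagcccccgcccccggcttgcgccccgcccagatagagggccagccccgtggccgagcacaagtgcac

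PU.1 is the factor that macrophage enhancers and promoters share, AP-1 is formed by Fos and Jun proteins, and the E-box is read by the MITF and TFEB family among others. Over the 250 bases, 23.3% of all 32851 RefSeq promoters held the PU.1 core, 6.75% the AP-1 motif and 6.02% the E-box. Of the 63 genes higher in BM-AΦ, 40 had a promoter in the table, and 13 of these held the PU.1 core (32.5%), 6 the AP-1 motif (15%) and 4 the E-box (10%). Of the 32 lower genes, 22 had one, with 9 (40.9%), 1 (4.55%) and 1 (4.55%). Among the 7760 tested genes with a promoter the shares were 26.2%, 5.08% and 10.4%. These are counts of letters, with no test, and say nothing of binding.

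Libraries of 4 weeks, which share no library with the comparison, gave a direction of monocytes. The paper states that at 4 weeks the sequenced cells were of CD45.2 origin alone. These monocytes thus carry the host allele, not the donor allele of BM-AΦ. Monocytes were set against TR-AΦ of that time, 6 and 6 libraries with both exposures, and 26% of 12973 tested genes passed higher and 22.6% lower in monocytes. Of the 63 genes higher in BM-AΦ, 60 were tested there, of which 39 (65%) were higher and 7 (11.7%) lower in monocytes. Of the 32 lower genes, 27 were tested, of which 21 (77.8%) were lower in monocytes and 1 higher. Over the 11742 genes tested in both comparisons the shares were 24.1% higher and 24.6% lower. So most, not all, of the genes that differed by origin in AΦ lay on the monocyte side at 4 weeks. Both comparisons were set against TR-AΦ, so genes low or high in TR-AΦ tend to lie on the same side in each. The shares over all genes were not matched for this, and whether the direction is particular to monocytes was not tested.

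How near the levels of BM-AΦ were to those of monocytes varied by gene. Plbd1 had a median of 241 FPKM in the 4-week monocytes and 13.1 FPKM in BM-AΦ. Ccr2 had 294 and 13 FPKM, Gpr132 222 and 5.91 FPKM, and Ifitm3 1220 and 5.91 FPKM. The medians of Cxcl16 were close, 29.4 FPKM in the monocytes and 28 FPKM in BM-AΦ, as were those of H2-Ob (4.07 and 3.46 FPKM) and Rps4l (4.53 and 6.21 FPKM). The median of Marco was 0 in those monocytes and 1.78 FPKM in BM-AΦ. In 4-week TR-AΦ, Marco had 6.42, 28.4 and 49.3 FPKM as the lowest, median and highest library, and Plbd1 1.88, 3.35 and 27.5 FPKM. Those 6 libraries thus spread widely for Plbd1, as they did for Ccr2 (3.67, 5.73 and 34.3 FPKM). Some 4-week TR-AΦ medians were near those of BM-AΦ at 32 weeks. Slc1a3 had 3.3 against 3.87 FPKM, Colec12 3.52 against 5.56, Tnfsf9 7.03 against 9.87 and Tmem176b 11.4 against 15. Others were near 32-week TR-AΦ, with 29.6 against 31.1 FPKM for Wwtr1, 29.7 against 28.1 for Rps4l and 1.02 against 1.04 for Sod3. These genes were picked after their values were seen, and the difference between times was not tested.

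Some genes higher in BM-AΦ had lower medians in monocytes. Sod3 had a median of 0.146 FPKM in the 4-week monocytes against 10.9 FPKM in BM-AΦ at 32 weeks, and Steap3 3.57 against 8.81 FPKM. Among the 7 genes higher in BM-AΦ and lower in monocytes were Timp2, Clec1a, a C-type lectin-like receptor, Ccdc80, an extracellular matrix protein, Espl1, which encodes separase, Apbb2 and Tmem198b. Clec1a had 11.3, 14 and 15.7 FPKM in BM-AΦ and 5.34, 6.47 and 8.27 FPKM in TR-AΦ (0.96 ± 0.11, adjusted p = 0.00243, all 12 fits), while 4-week TR-AΦ had a median of 24.6 FPKM and monocytes 3.38 FPKM. Ccdc80 had medians of 28.1 and 16.6 FPKM (0.70 ± 0.12, adjusted p = 0.0263, 3 of the 12 fits) against 0.0865 FPKM in the monocytes. Trim30d, the 1 gene lower in BM-AΦ and higher in monocytes, had medians of 3.24 and 6.07 FPKM by origin (-0.67 ± 0.12, adjusted p = 0.0263, 2 of the 12 fits) and 18.2 FPKM in monocytes.

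**Figure D5:**
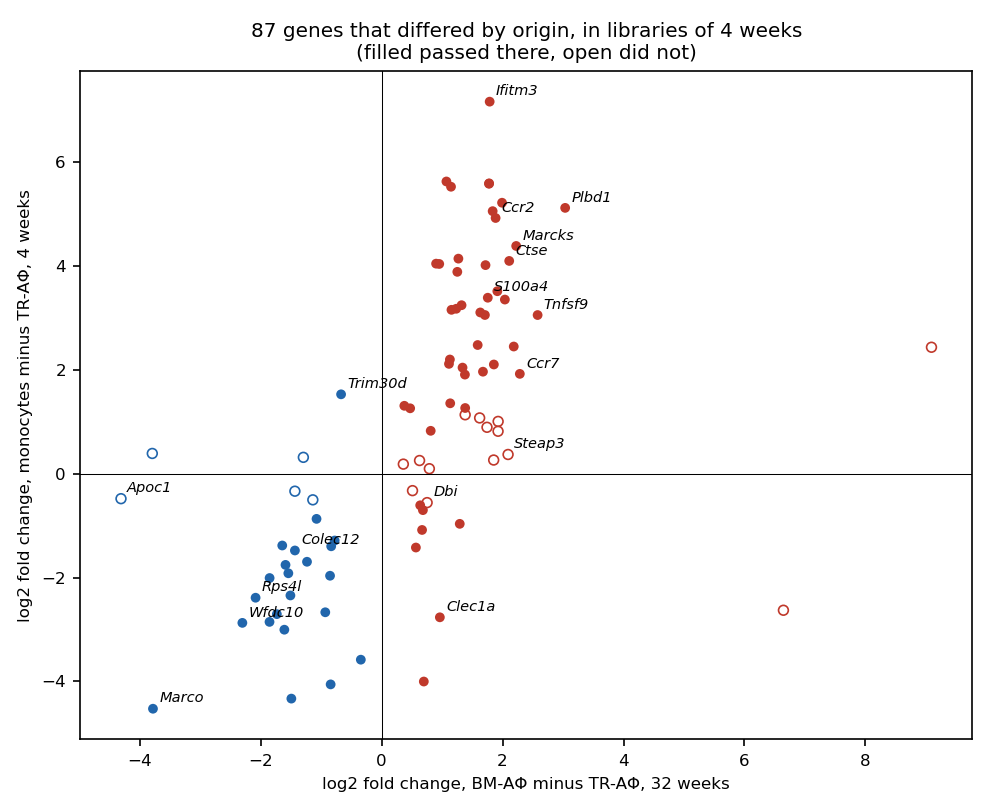
The 87 genes that differed by origin at 32 weeks and were tested at 4 weeks, with the log2 fold change BM-AΦ minus TR-AΦ on the x axis and that of monocytes minus TR-AΦ at 4 weeks, from other libraries, on the y axis; filled points passed at 4 weeks. Of the genes higher in BM-AΦ (red) 39 lie above 0 and passed and 7, such as Clec1a, lie below and passed; of the lower genes (blue) 21 passed below 0, with Marco the furthest, and Trim30d is the 1 that passed above.

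The same allele contrast in monocytes of 32 weeks gave few of these genes. The labels number these monocytes 1 and 2, and they were taken to be CD45.1+ and CD45.2+ because the macrophages are numbered that way. Between them 71 of 12822 tested genes passed (0.554%), 10 higher and 61 lower in CD45.1 cells. Of 60 tested genes higher in BM-AΦ, Ctse and Gm38399 were also higher in CD45.1 monocytes. Ctse had medians of 48.9 FPKM in CD45.1 and 2.18 FPKM in CD45.2 monocytes. Of 14 tested genes lower in BM-AΦ, Bmpr1a (medians 0.3 and 2.76 FPKM) and Colec12 (0.474 and 5.44 FPKM) were lower there. The CD45.2 monocytes also had more of some macrophage transcripts, with medians of 56.4 against 4.02 FPKM for Cd163 and 579 against 164 FPKM for C1qa. Ear1 had 20.1 against 0.237 FPKM, while Chil3 (385 and 384 FPKM) and Pparg (9.17 and 10.3 FPKM) were close. Allele and cell content cannot be told apart in this contrast. A difference between CD45.1 and CD45.2 cells was thus seen in both cell types for 4 genes, of which Ctse and Gm38399 lie within 25 Mb of Ptprc.

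The comparison was also made within each exposure. Within FA alone, fitted with 1 mean per group over the 12 libraries, 11 genes passed (0.0887%), and within PM2.5 alone 3 passed (0.0242%), namely Ctse, Rps4l and Rn7s1. Marco had log2 differences of -3.95 within FA and -3.61 within PM2.5, Plbd1 3.21 and 2.86, and Ccr7 2.51 and 2.07. A test of whether the origin difference differed between exposures (interaction) passed for 2 genes (0.0161%), Cdk8 and Gm26917, and 275 genes had an unadjusted p under 0.05. Cdk8, a kinase of the Mediator complex, and the long noncoding RNA Gm26917 were listed at 0 in all 3 BM-AΦ FA libraries. Cdk8 had 10.3 to 14.3 FPKM in the other 9 and Gm26917 21137 to 38858 FPKM. Exposure itself, PM2.5 against FA over the 12 libraries of both origins, gave no call by limma (smallest adjusted p = 0.538; 510 genes with an unadjusted p under 0.05).

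A few called genes were listed at 0 in all libraries of 1 origin. Rn7s1, a copy of the 7SL RNA of the signal recognition particle, was listed at 0 in all 6 BM-AΦ libraries and had 587 to 1168 FPKM in TR-AΦ. It was also at 0 in all 6 TR-AΦ libraries and all 6 monocyte libraries of 4 weeks. Its near copy Rn7s2 had 639 to 983 FPKM in BM-AΦ and 943 to 1619 FPKM in TR-AΦ, so the assignment of reads between the copies is uncertain. The small RNA genes Gm26127 and Gm25744 were at 0 in all TR-AΦ libraries and the pseudogene Gm42883 in all BM-AΦ libraries. With genes that cells of every kind use, such as Cdk8, also at 0 in whole groups, these are given as listed and without a fold change.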

How the data were processed

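Lung macrophages were sorted by flow cytometry, and RNA (RNeasy Micro kit) went into SMART-Seq stranded libraries. The authors deposited FPKM values per gene and library, and the submitters' processing notes name STAR, Cufflinks, Cuffdiff and mm10. The study's methods add adapter trimming with TrimGalore, GENCODE-guided alignment, the tool versions and a single depth for the sequencing as a whole. Reads per library were not in the files used, so the counting error of each library is unknown. Library columns were matched to samples by title, with 0 columns left over. MF1 was read as BM-AΦ and MF2 as TR-AΦ by the key in the study's supplementary sheets.

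Genes whose mean level over the 12 libraries reached 1 FPKM were fitted as log2(FPKM + 1) with limma 3.58.1 (trend, exposure as covariate), and a p adjusted by Benjamini-Hochberg under 0.05 was called. A pseudocount of 1 makes fold changes of low genes too small. Count tests could not be used on FPKM. On simulated data of the same 12395 genes, 69 of 100 genes changed by a log2 of 1 and 84 of 100 changed by 2 were called, as were 6 of 12195 unchanged genes.

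Named were the 15 genes per direction with the largest changes that did not overlap and reached a mean of 5 FPKM, up to 4 called genes per list and direction, sort and study genes, called genes within 25 Mb of Ptprc and interaction genes. Other named genes, such as Plxnd1, Meis1, Bmpr1a, S100a6, Clec1a, Ccdc80 and Trim30d, were chosen after their values were seen. The comparison and all 38 gene lists were chosen with earlier results of these data known. Positions are GENCODE M21 on GRCm38. The authors' own comparisons were not used, and some genes of the lists are not reported here.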

Additional observations from a re-analysis of the deposited data

Results flagged for a closer look

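A library far from the other 5 of its origin was looked for in each origin, for 67 of the named genes and for the summed monocyte, interstitial macrophage and dendritic cell markers, in 140 groups of 6, of which 15 had one, and chance marks about 1 group in 20. In BM-AΦ, the library that stood apart was PM2.5 replicate 2 for Marco (6.85 FPKM) and Fstl1 (15.4 FPKM), PM2.5 replicate 1 for Apoc1 (4.29 FPKM) and PM2.5 replicate 0 for Tgfb1 (229 FPKM). FA replicate 0 stood apart for Gpr132 (10.9 FPKM), FA replicate 2 for Cd163 (1.63 FPKM) and FA replicate 1, the lowest, for Timp2 (32.6 FPKM). In TR-AΦ it was FA replicate 2 for Itgam (1.56 FPKM) and Runx3 (1.01 FPKM), and PM2.5 replicate 2 for Ctse (0.545 FPKM) and Ccl5 (2.86 FPKM). PM2.5 replicate 1 stood apart for Colec12 (20.8 FPKM) and Pparg (89.4 FPKM), PM2.5 replicate 0 for Ly6c2 (1.82 FPKM) and FA replicate 1, the lowest, for Marcks (0.264 FPKM).

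The origin difference differed between exposures for Cdk8 and Gm26917 in the interaction test. In both genes the 3 BM-AΦ FA libraries were listed at 0, so the pseudocount sets the size of the difference and none is given.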

How the results depend on the processing

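FPKM without reads gave no counting error, the libraries may share animals, and origin, donor genotype and conditioning could not be separated. In every alternative, each of the 95 genes that was still tested kept its direction. The count of called genes stayed between 83 and 116 with a pseudocount of 0.1 (92), no filter (116), quantile normalisation (91), a common FPKM sum (85), no covariate (114), robust moderation (105), without genes listed at 0 in 1 origin (95) or near Ptprc (83), and with a term for replicate 2 (110). With a mean of at least 5 FPKM it was 45 (29 higher, 16 lower), with fewer genes tested. With all 18 AΦ libraries in the fit it was 40 (17 higher, 23 lower); the cause was not tested. Without replicate 2 of every group, where red cell transcripts were high (this setting and the term for replicate 2 were chosen after seeing the data), it was 7 (2 higher, 5 lower), from 8 libraries, and the log2 fold change of Cxcr1 turned to -0.24. That of Tgfb1 turned to 0.011 with a common sum.

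Leaving out 1 library gave 34 to 147 calls (19 to 110 higher, 14 to 37 lower), 4 to 11 within FA, 2 to 10 within PM2.5, 2 to 7 in the interaction and 37 to 85 between the monocytes. Cxcr1 ranged from -0.25 to 0.43. The interaction gave 4 genes without a filter. Within 10 Mb of Ptprc lay 4.21% of called genes, against 9.47% within 25 Mb.

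The main fit did not pair libraries by replicate number, and the numbers were tried as a block. Libraries with the same number correlated at -0.02 to 0.06, and whether they came from the same mice was not tested. A hint of shared mice came from the data, beside the paper's account of how mice were picked. Of 6 BM-AΦ libraries, 5 correlated best with the TR-AΦ library of their own number. Heat shock sums were highest in both origins of FA replicate 0 (1722 and 1474 FPKM) and PM2.5 replicate 1 (1703 and 1554 FPKM). With the replicate block 151 genes were called (96 higher, 55 lower; 72 of the 95 among them), 6 within FA, 4 in the interaction and 266 between the monocytes.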

Other observations

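Chromosome 6 held 11 called genes of 646 tested (1.7%), next to 13 of 834 on chromosome 1 (1.56%). Plbd1, Arhgdib and Ptpro, a receptor tyrosine phosphatase, were all higher in BM-AΦ and lie within a stretch from chr6:136612070 to chr6:137463233 (GRCm38). Arhgdib had 181, 194 and 215 FPKM as the lowest, median and highest library in BM-AΦ and 145, 146 and 163 FPKM in TR-AΦ (0.38 ± 0.07, adjusted p = 0.0482), and Ptpro 1.93, 2.63 and 5.18 FPKM against 0.369, 0.622 and 1.23 FPKM (1.24 ± 0.24, adjusted p = 0.0459). Each passed in 1 of the 12 fits that left out 1 library. This stretch was picked after its values were seen, and no test was made of it. None of the 3 genes passed between CD45.1 and CD45.2 monocytes (adjusted p = 0.752, 0.919 and 0.986).

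Just outside the threshold lay Siglec1, the sialoadhesin receptor, with means of 112 FPKM in BM-AΦ and 147 FPKM in TR-AΦ (log2 difference -0.38, adjusted p = 0.0533), and Vstm2a, with 16.2 and 36.2 FPKM (-1.19, adjusted p = 0.0504). Just inside were Bin1, a membrane-bending protein, with 3.19 and 1.41 FPKM (0.81, adjusted p = 0.0482), and Arhgdib.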
